A study of Rattus norvegicus with 196 samples.

Results

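*Fzd6*, *Bmpr1a*, *Notch2* and *Erbb3* encode receptors of 4 signalling systems best known from development. Their transcripts were found by name in the study's list of transcripts that it called in 2 or more brain regions, and they make up 4 of the 29188 transcripts counted in every library. The identifiers are ENSRNOT00000006195 for *Fzd6*, ENSRNOT00000015047 for *Bmpr1a*, ENSRNOT00000025718 for *Notch2* and ENSRNOT00000006796 for *Erbb3*. Because that list was built from calls made on these same samples, a call of any transcript on it is not independent evidence.

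Frizzled receptors such as Fzd6 bind secreted Wnt ligands, and Fzd6 is best known for its part in planar cell polarity. Bmpr1a is a type I receptor kinase for bone morphogenetic proteins and passes the signal to Smad factors, while Notch2 is cut on contact with a ligand such as Jag1 so that its intracellular part can act in the nucleus. Erbb3 binds neuregulins, lacks strong kinase activity of its own, signals through a partner such as Erbb2 and is used by cells of the oligodendrocyte lineage in the brain.

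RNA from 25 brain regions of male Long-Evans rats was sequenced in 196 libraries. The 98 FT libraries came from rats that received fluoxetine, a selective serotonin reuptake inhibitor, at 18 mg/kg body weight for 6 weeks, and the 98 Sham libraries from rats given water. All rats were 2 months old at the start of treatment, and punches of a region from several animals were pooled into each library, so that fewer cells of a type and less RNA per cell cannot be told apart. Replicates were numbered 1, 3, 4 and 5, and the FT and Sham samples of a number were processed in parallel by the study. Most regions had 4 libraries per group. The exceptions were mPoA (medial preoptic area), with Sham libraries of all 4 numbers but FT libraries of replicates 4 and 5, and Arc (arcuate nucleus), with FT libraries of all 4 numbers but Sham libraries of replicates 4 and 5.

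Between 4586 and 50893913 reads per library fell on transcripts, with a median of 11921178. The 50 most abundant transcripts took a median of 68.2% of the reads in replicate 3, against 34.8%, 29.9% and 28.3% in replicates 1, 4 and 5, so that less depth was left for receptors of low abundance. Several libraries stood apart. The Sham Nts (solitary tract nucleus) library of replicate 3 held 4586 reads, the Sham ILC (infralimbic cortex) library of replicate 3 held 543403, and the Sham VTA (ventral tegmental area) library of replicate 1 held 2041893. In the Sham ILC library of replicate 1, 50 transcripts took 82.9% of the reads, as did 83.3% in the FT CGC (cingulate cortex) library of replicate 1, while the highest share in the remaining replicate 1 libraries was 60.0%. The pair of replicate 1 in CGC was left out, as an outlier. Neuronal markers were present in every group. The sum of 5 markers ran from 837 to 5010 CPM in the Sham and from 1079 to 5712 CPM in the FT libraries, where CPM stands for the share of a library's reads after TMM scaling, on the usual CPM scale.

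Promoter windows were available for *Bmpr1a* and *Notch2*, and none was available for *Fzd6* or *Erbb3*. The windows (RefSeq, build GRCr8) run from 250 bases before to 50 after the gene start and are printed 5′ to 3′ on the gene's strand with each CG pair in capitals. *Bmpr1a* lies at chr16:9786812-9787111 on the minus strand and *Notch2* at chr2:188299086-188299385 on the plus strand.
Bmpr1a: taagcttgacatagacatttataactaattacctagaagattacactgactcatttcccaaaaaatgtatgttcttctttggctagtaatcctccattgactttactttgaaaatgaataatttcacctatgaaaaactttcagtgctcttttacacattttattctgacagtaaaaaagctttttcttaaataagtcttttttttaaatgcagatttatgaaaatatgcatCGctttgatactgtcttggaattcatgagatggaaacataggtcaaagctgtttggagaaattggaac
Notch2: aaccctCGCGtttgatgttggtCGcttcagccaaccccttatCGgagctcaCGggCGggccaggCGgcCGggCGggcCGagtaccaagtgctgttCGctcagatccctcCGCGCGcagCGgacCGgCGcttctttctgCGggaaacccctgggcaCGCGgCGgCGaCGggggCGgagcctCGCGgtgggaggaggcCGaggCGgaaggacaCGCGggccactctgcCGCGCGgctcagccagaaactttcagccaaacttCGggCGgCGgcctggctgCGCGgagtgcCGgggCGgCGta
The *Notch2* window held 41 CG pairs at a GC content of 71.3%, and 2.83% of 33469 windows held as many or more. The *Bmpr1a* window held 1 CG pair at a GC content of 30.0%, and 94.5% of windows held at least as many. The counted transcripts were annotated on the older build rn5, so the starts may differ, and no value below was measured on these sequences.

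FT and Sham were compared in each region with edgeR's quasi-likelihood test and the replicate number as a block. A transcript was called where its log2 fold change (log2FC) reached 0.32 in either direction and its p, adjusted by the Benjamini-Hochberg method over all transcripts of the region, did not exceed 0.1. All 4 receptors passed the filter on low counts in all 25 regions. The log2FC of *Fzd6* lay above 0 in 25 of 25 regions, and 3 of them, mPoA, Arc and Nts, passed as higher in FT. The background was 1.01% of 334878 transcript and region combinations called higher, and 3.67% among transcripts named on the study's list. *Bmpr1a* was called lower in 1 region (Arc), *Notch2* in 2 (Arc and Nts) and *Erbb3* in 3 (mPoA, raphe and Arc), against a background of 0.913% called lower, or 2.68% among named transcripts. Their log2FC was negative in 24, 23 and 25 of 25 regions, respectively.

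Median log2FC over regions was 1.33 for *Fzd6*, -0.79 for *Bmpr1a*, -0.73 for *Notch2* and -1.16 for *Erbb3*. For *Fzd6* it ran from 0.21 in MS (medial septum) to 2.48 in mPoA, and for *Erbb3* from -2.16 in ILC to -0.17 in MS. An unadjusted p under 0.05 was reached in 16 regions for *Fzd6*, 16 for *Bmpr1a*, 8 for *Notch2* and 13 for *Erbb3*, and in 14% of all combinations tested. The regions share replicate numbers and, by the animal numbers the study gives, the same animals, so that they are not independent. DESeq2 with the same block called *Fzd6* higher in 6 regions, where its background was 2.58%, and *Bmpr1a*, *Notch2* and *Erbb3* lower in 7, 3 and 3, where it was 1.75%. It gave no adjusted p for each receptor in some regions, most often for *Erbb3*, so that no call was possible there. Its backgrounds count only the 256648 combinations with an adjusted p. Without the replicate block, edgeR called none of the 4 receptors in any region, and 1 of 334878 combinations over all transcripts.

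**Figure D1:**
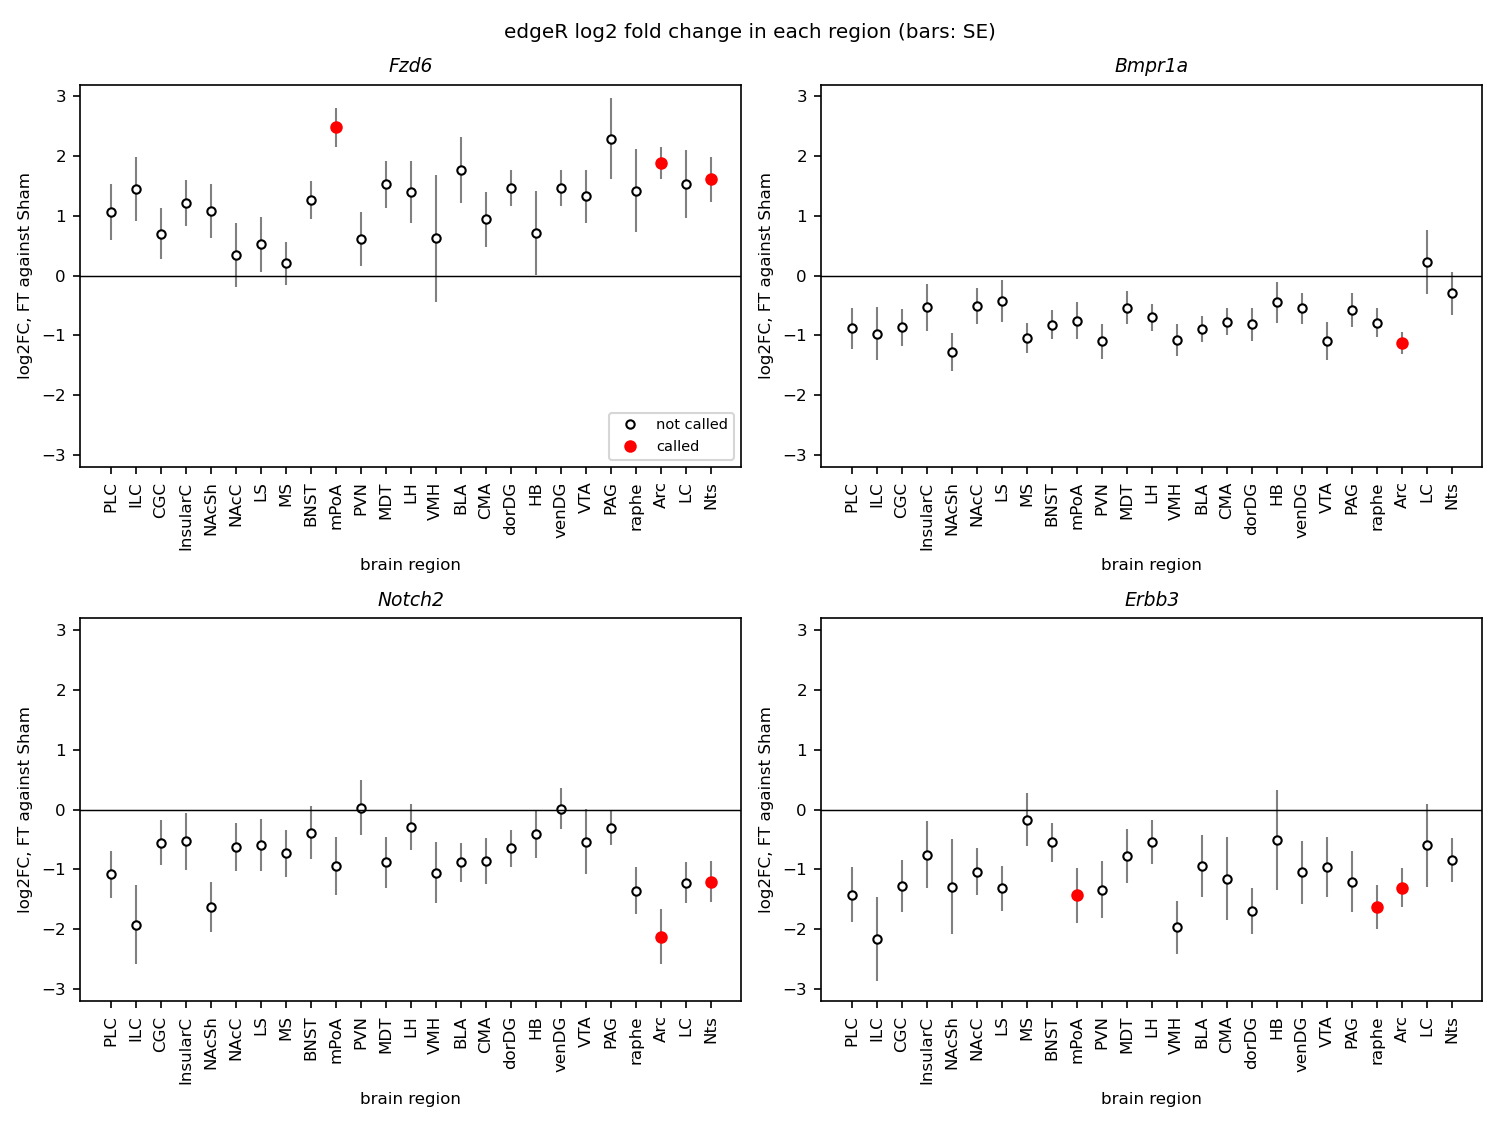
Log2FC of FT against Sham from edgeR (y axis) in each of 25 regions (x axis), with bars for the standard error and filled red points for calls. *Fzd6* lies above 0 and *Erbb3* below 0 in every region, and calls are few, 3 for each of them.

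The differences were carried unevenly by the replicate numbers. For *Fzd6*, log2 CPM (prior count 2) of the FT library exceeded that of its Sham pair throughout replicates 4 and 5, in 25 of 25 regions each, with median differences of 1.64 and 2.01. In replicates 1 and 3 it was higher in 10 and 7 of 22 regions, with medians of -0.07 and -0.12. *Erbb3* went the opposite way. Its FT library was the higher of the pair in 0 of 25 regions for replicates 4 and 5, 11 of 22 for replicate 1 and 7 of 22 for replicate 3. Median *Erbb3* differences were -0.83 (replicate 4), -1.85 (replicate 5), 0.08 (replicate 1) and -0.35 (replicate 3).

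For *Bmpr1a* no pair of replicates 4 or 5 had the higher level in FT (0 of 25 regions each), with median differences of -0.97 and -0.89. Here replicates 1 and 3 leaned the same way, with FT higher in 7 and 4 of 22 regions and medians of -0.24 and -0.57. In 16 regions every usable pair put *Bmpr1a* lower in FT. The same held for *Notch2* in 13 and *Erbb3* in 11, and every pair put *Fzd6* higher in 8. Regions with fewer than 4 usable pairs are among these, and no share over all transcripts is given beside the counts. For *Notch2* the FT library was the higher one in 2 of 25 pairs of replicate 4 and 0 of 25 of replicate 5, with medians of -0.78 and -1.53. Its medians in replicates 1 and 3 were -0.43 and -0.03, with FT higher in 8 and 9 of 22 regions.

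**Figure D2:**
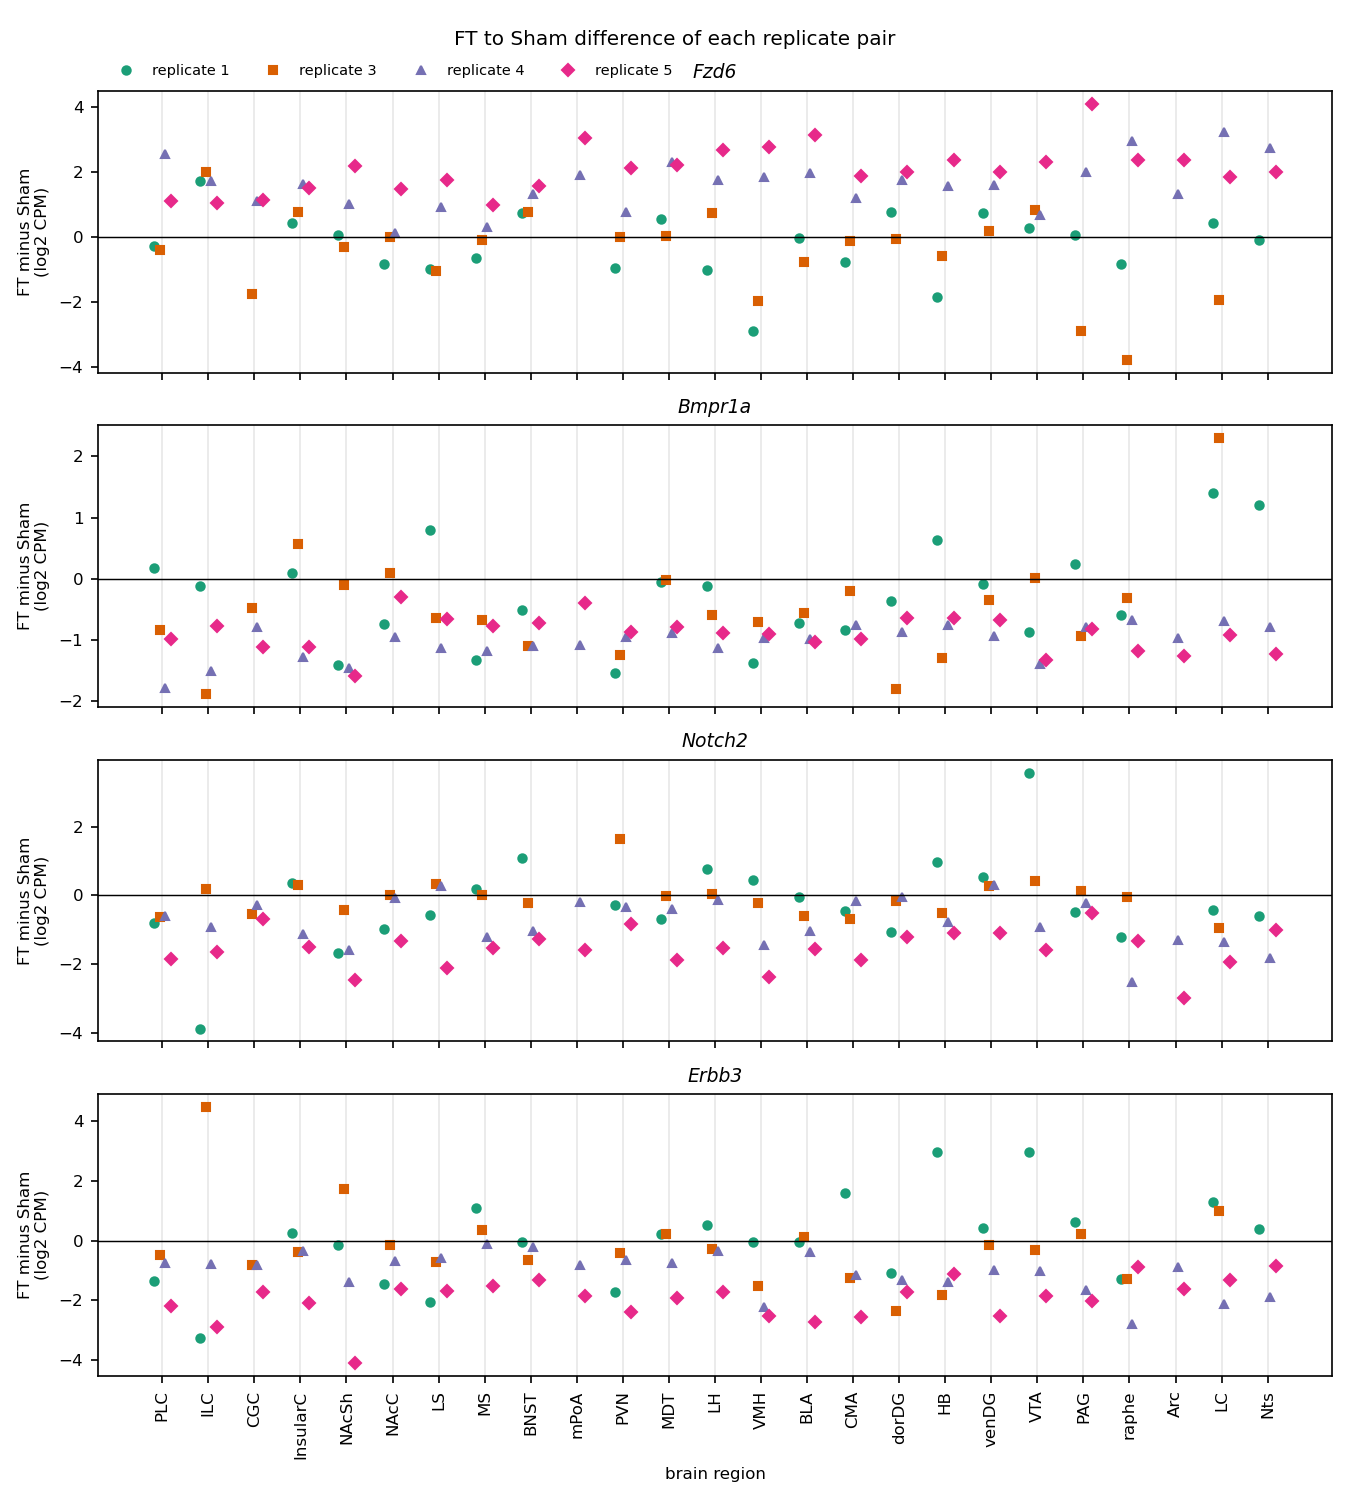
FT minus Sham log2 CPM (y axis) of each replicate pair, by brain region (x axis), with 1 panel per transcript and a colour and symbol per replicate number. In the *Fzd6* panel the points of replicates 4 and 5 lie above 0 in all 25 regions, while those of replicates 1 and 3 spread on both sides.

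To weigh each replicate number equally, the differences were averaged over the 21 regions with 4 usable pairs and compared with an exact two-sided sign-flip permutation test over the 4 numbers, which cannot give a p below 0.13. *Fzd6* averaged 0.75 ± 1.26 (SD, n = 4, exact p = 0.5), from -0.25 and -0.41 in replicates 1 and 3 to 1.58 and 2.07 in replicates 4 and 5. *Bmpr1a* averaged -0.69 ± 0.33 (SD, n = 4, exact p = 0.13), and its 4 values ran from -1.06 to -0.35. *Notch2* averaged -0.64 ± 0.67 (SD, n = 4, exact p = 0.13) and *Erbb3* -0.82 ± 0.92 (SD, n = 4, exact p = 0.13), each with its lowest value, -1.54 and -2.03, in replicate 5. For *Bmpr1a*, *Notch2* and *Erbb3* all 4 numbers gave a negative mean, which held for 14.2% of 17313 transcripts, while the mean of *Fzd6* changed sign between the numbers. That count of signs was not stable for *Erbb3* and *Notch2*. At a prior count of 0.5 the *Erbb3* mean of replicate 1 was 0.06 (exact p = 0.25), and over every region and pair with both samples it was again 0.06 while the *Notch2* mean of replicate 3 was 0.20 (exact p = 0.375 for either). In replicates 4 and 5 together, 0.139% of transcripts lay as far above 0 as *Fzd6*, and 1.45%, 1.05% and 0.26% as far below 0 as *Bmpr1a*, *Notch2* and *Erbb3*. These shares are a description, not independent evidence. Replicates 4 and 5 are the numbers with the largest differences, and the receptors were listed for calls on these same samples. No share among the named transcripts is given.

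**Figure D3:**
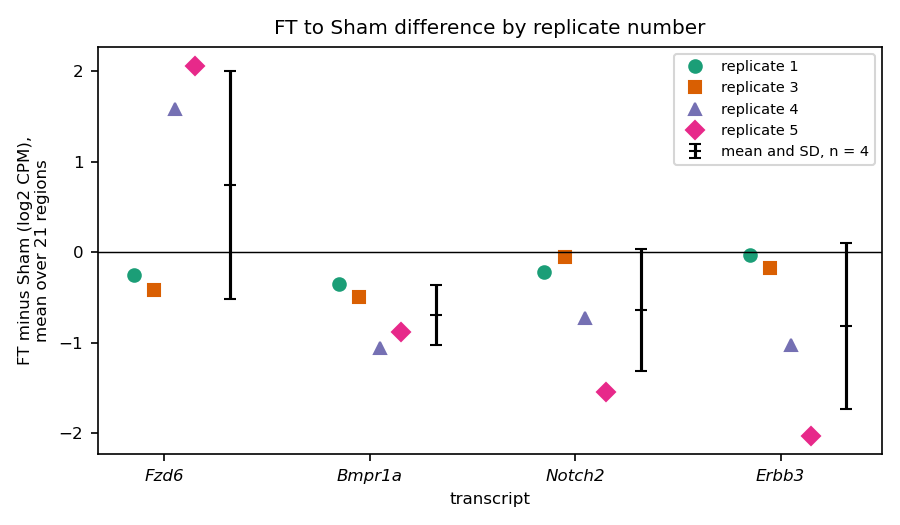
FT minus Sham log2 CPM averaged over 21 regions (y axis) for each replicate number and transcript, with the mean and SD of the 4 numbers as black bars. *Fzd6* is at 1.58 and 2.07 in replicates 4 and 5 and below 0 in replicates 1 and 3, and the SD of *Bmpr1a* is the smallest of the 4.

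The read counts behind these pairs differed as much. *Fzd6* had 0 to 13 reads per library in replicate 3, with a median of 3 in either group. In replicates 4 and 5 it had 38 to 1161 reads, so the pairs of replicate 3 are the least precise. *Notch2* and *Erbb3* had medians of 25 and 12 reads in the Sham and 27 and 8 in the FT libraries of replicate 3. In replicate 1 the median of *Fzd6* was 42 reads in Sham and 27 in FT, with lowest counts of 2 and 8.

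*Fzd6* separated the FT from the Sham libraries fully in mPoA alone. Its level was 4.30, 1.19, 6.31 and 3.60 CPM in the Sham libraries of replicates 1, 3, 4 and 5 and 23.9 and 30.5 CPM in the FT libraries of replicates 4 and 5. Both FT libraries lay above all 4 Sham libraries, at 458 and 917 reads. The log2FC was 2.48 ± 0.33 (SE, edgeR adjusted p = 2.13e-07), and DESeq2 gave 2.50 (adjusted p = 1.22e-05). No FT library of replicates 1 or 3 was used there, and 4.85% of transcripts in mPoA were called higher. Over regions, median FT *Fzd6* was 1.99 and 0.844 CPM in replicates 1 and 3 against 25.7 and 21.5 CPM in replicates 4 and 5. The separation in mPoA therefore also compares replicate numbers. No share of all transcripts that separate fully is given, here or for Arc below.

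In Arc, *Fzd6* measured 11.2 and 11.5 CPM in the Sham libraries of replicates 4 and 5 and 28.4 and 60.7 CPM in their FT pairs. The FT libraries of replicates 1 and 3, which had no Sham pair, measured 2.52 and 2.77 CPM, below both Sham libraries, so that the groups overlapped. The edgeR log2FC was 1.88 ± 0.27 (SE, adjusted p = 0.0177), with 13.7% of transcripts in Arc called higher. In both Arc and mPoA 2 pairs alone inform the treatment term.

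In Nts, *Fzd6* measured 2.86, 4.66 and 5.19 CPM in the Sham libraries of replicates 1, 4 and 5 and 0 in the shallow library of replicate 3. The FT libraries measured 2.66, 2.21, 31.7 and 20.97 CPM in replicates 1, 3, 4 and 5, so that those of replicates 4 and 5 stood above the rest. The call (log2FC 1.61 ± 0.38, SE, edgeR adjusted p = 0.0302) rested on that shallow library: without its pair the log2FC was 1.60 but the adjusted p was 0.33. In Nts 1.8% of transcripts were called higher with the pair, and 0 of 12953 in either direction without it.

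Large *Fzd6* differences were not confined to the called regions. In MDT (mediodorsal thalamus) the FT libraries measured 7.14, 2.23, 53.9 and 58.4 CPM against 4.84, 2.19, 10.7 and 12.5 CPM in the Sham libraries of replicates 1, 3, 4 and 5. In dorDG (dorsal dentate gyrus) they measured 4.60, 1.43, 62.3 and 51.7 CPM against 2.63, 1.48, 18.2 and 12.8 CPM. The FT libraries of replicates 4 and 5 lay above every Sham library in both regions. DESeq2 called both (adjusted p = 0.0388 and 0.0158) and edgeR neither (adjusted p = 0.494 and 0.183).

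*Bmpr1a* was called in Arc, at 22.4 and 22.8 CPM in Sham and 6.94, 3.17, 11.4 and 9.40 CPM in the FT libraries of replicates 1, 3, 4 and 5. All 4 FT libraries lay below both Sham libraries. Replicates 1 and 3 had no Sham library in Arc, however. Over regions, median Sham *Bmpr1a* was 7.56 and 4.73 CPM in replicates 1 and 3 against 19.3 and 15.3 CPM in replicates 4 and 5. The separation of the groups therefore also compares replicate numbers. The log2FC was -1.13 ± 0.19 (SE, edgeR adjusted p = 0.0241), with 10.8% of transcripts in Arc called lower. In PVN (hypothalamic paraventricular nucleus) its FT level was 5.77, 2.93, 9.93 and 9.64 CPM against 17.1, 7.13, 19.3 and 17.7 CPM in Sham. Each PVN pair fell in the same direction, and the log2FC was -1.10 ± 0.29 (SE), at an adjusted p of 0.193 with edgeR and 0.0415 with DESeq2. LC (locus coeruleus) was the 1 region with a positive *Bmpr1a* log2FC, 0.23 ± 0.54 (SE, edgeR adjusted p = 0.879), where FT lay higher in replicates 1 and 3 and lower in replicates 4 and 5.

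*Notch2* in Arc measured 5.20 and 7.23 CPM in Sham and 1.47, 9.91, 2.03 and 0.79 CPM in the FT libraries of replicates 1, 3, 4 and 5. Replicate 3 was the highest FT library, on 25 reads, and overlapped the Sham range. The log2FC was -2.13 ± 0.46 (SE, edgeR adjusted p = 0.038). The Nts call (log2FC -1.21 ± 0.34, SE, edgeR adjusted p = 0.0681, 2.36% of transcripts called lower) was lost without the pair that holds the shallow Sham library (log2FC -1.26, adjusted p = 0.283). In raphe, *Notch2* measured 4.26, 8.35, 8.17 and 6.17 CPM in Sham and 1.76, 8.07, 1.31 and 2.39 CPM in FT, lower in 4 of 4 pairs. There the edgeR adjusted p of 0.104 missed the threshold and that of DESeq2, 0.0394, passed it.

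*Erbb3* in raphe, the region of the serotonin neurons, was the 1 edgeR call with 4 complete pairs of ordinary depth. Its level was 3.44, 8.85, 13.01 and 6.73 CPM in Sham and 1.32, 3.59, 1.79 and 3.59 CPM in FT. FT was lower in 4 of 4 pairs, by between 0.88 and 2.77 on the log2 scale, although the highest FT libraries overlapped the lowest Sham library. The log2FC was -1.63 ± 0.37 (SE, edgeR adjusted p = 0.0618, DESeq2 adjusted p = 0.00603), and 3.51% of transcripts in raphe were called lower. Leaving out replicate 1, 4 or 5 put the edgeR adjusted p at 0.114, 0.284 and 0.116.

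In mPoA, *Erbb3* measured 0.749, 4.05, 2.97 and 7.85 CPM in Sham and 1.62 and 2.06 CPM in the FT libraries of replicates 4 and 5. The groups overlapped through the Sham library of replicate 1, and the log2FC was -1.43 ± 0.46 (SE, edgeR adjusted p = 0.0446, DESeq2 adjusted p = 0.312, not called), with 4.74% of transcripts called lower. In Arc it measured 3.80 and 6.41 CPM in Sham and 0.607, 2.38, 1.98 and 2.01 CPM in FT. All 4 FT libraries lay below both Sham libraries there (log2FC -1.31 ± 0.33, SE, edgeR adjusted p = 0.0521). Here too, replicates 1 and 3 had no Sham library. Over regions, median Sham *Erbb3* was 0.807 and 4.05 CPM in replicates 1 and 3 against 5.30 and 7.68 CPM in replicates 4 and 5. Of the edgeR calls, DESeq2 gave no adjusted p for *Erbb3* and *Notch2* in Arc or for *Fzd6* and *Notch2* in Nts.

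In ILC the calls, but not the direction of the differences, differed between a fit of all pairs and a fit of replicates 4 and 5. The latter leaves out the 2 Sham libraries that stood apart, with their pairs. It also keeps only the numbers with the largest differences over regions, so the part of those libraries cannot be told. With all 4 pairs no receptor was called in ILC, and *Erbb3* had its lowest log2FC there (-2.16 ± 0.71, SE, edgeR adjusted p = 0.505), with Sham levels of 3.77, 0, 3.05 and 7.52 CPM and FT levels of 0.268, 2.92, 1.72 and 0.895 CPM. In a fit of replicates 4 and 5 alone, chosen after the values were seen, *Erbb3* (log2FC -1.97, edgeR adjusted p = 0.0077), *Bmpr1a* (log2FC -1.19, adjusted p = 0.0435) and *Fzd6* (log2FC 1.36, adjusted p = 0.0278) were called, as were 2.09% of transcripts higher and 2.1% lower. *Notch2* was not (log2FC -1.42, adjusted p = 0.132). In VTA, leaving out the pair of replicate 1 gave no call for any of the 4.

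Whether the FT to Sham difference itself varied between regions was tested in a joint edgeR fit of the 21 regions with 4 usable pairs, which allowed each replicate number its own treatment effect. None of the 4 receptors passed, at adjusted p = 0.391 for *Fzd6*, 0.373 for *Bmpr1a*, 0.22 for *Notch2* and 0.758 for *Erbb3*, while 4.59% of 16673 transcripts did. The unadjusted p was 0.128, 0.115, 0.0359 and 0.507, respectively. The fit left out CGC, mPoA, Arc and Nts, so that of the 9 receptor calls it covered *Erbb3* in raphe alone, and whether the differences in mPoA, Arc and Nts departed from those elsewhere was not tested.

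Levels across regions in Sham were compared with the replicate number as a block. All 4 receptors differed between regions (edgeR F-test, adjusted p = 3.26e-13 for *Fzd6*, 0.0016 for *Bmpr1a*, 9.88e-04 for *Notch2* and 7.92e-05 for *Erbb3*), as did 75.2% of 17008 transcripts. Each region was then set against the mean of the others, where 19.2% of all combinations were called. *Fzd6* was called in 13 regions, higher in PVN, dorDG, MDT, Arc, CGC and HB (habenula) and lower in InsularC (insular cortex), BNST (bed nucleus of the stria terminalis), CMA (central medial amygdala), ILC, NAcC and NAcSh (nucleus accumbens core and shell) and BLA (basolateral amygdala). The ILC call was lost without the Sham libraries that stood apart in ILC and VTA (log2 difference -0.49, edgeR adjusted p = 0.52, against -0.76 and 0.0613). By region, the share of transcripts called was 20% in PVN, 35% in dorDG, 16.7% in MDT, 16.3% in Arc, 21.1% in CGC, 19.4% in HB, 26.2% in InsularC, 10.8% in BNST, 18% in CMA, 25.2% in ILC, 17.6% in NAcC, 15% in NAcSh and 9.88% in BLA. Without the replicate block the F-test of *Fzd6* gave an adjusted p of 0.102 and those of the other 3 gave 1.

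*Fzd6* was highest in PVN, at 16.0, 2.47, 19.9 and 14.7 CPM in replicates 1, 3, 4 and 5, and lowest in BLA, at 1.38, 0.668, 3.67 and 1.89 CPM. Within each replicate number PVN lay above BLA. PVN exceeded the mean of the others by 1.81 ± 0.20 on the log2 scale (SE, edgeR adjusted p = 5.78e-12) and BLA lay below it (-1.24 ± 0.29, SE, edgeR adjusted p = 0.00178). PVN was also above dorDG, the next in the order (log2 difference 0.88 ± 0.33, SE, edgeR adjusted p = 0.0331), a pair of regions between which 36.5% of transcripts differed, and 22.3% differed between PVN and BLA. No other pair of neighbours in the *Fzd6* order, and no pair in the order of the other 3 receptors, passed the test.

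*Bmpr1a* was the flattest of the 4, with 4 regions called, higher in PVN and MS and lower in PAG (periaqueductal gray) and LC. Of all transcripts, 7.1% were called in MS, 17% in PAG and 34.6% in LC. Its levels were 17.1, 7.13, 19.3 and 17.7 CPM in PVN and 4.31, 1.00, 9.46 and 14.4 CPM in LC. PVN lay above LC within each replicate number, and the log2 difference between the ends of the order was 1.27 ± 0.29 (SE, edgeR adjusted p = 9.28e-04), against 2.93 ± 0.37 (SE) between the ends for *Fzd6*. Between PVN and LC 17.5% of transcripts differed. In the FT libraries the F-test of *Bmpr1a* stood at an adjusted p of 0.099 and no single region was called.

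*Notch2* was called in 4 regions, higher in ILC, LC and raphe and lower in CGC, and 4.93% of transcripts differed between ILC and CGC, the ends of its order. ILC headed its order at 16.3, 6.54, 2.38 and 3.96 CPM, but the first of these comes from a library that stood apart and the second from 1 read. Without the Sham libraries of ILC replicates 1 and 3 and VTA replicate 1, ILC moved to place 24 of 25 and LC came first (log2 difference from the others 1.16 ± 0.21, SE, edgeR adjusted p = 1.20e-05). LC measured 2.69, 14.7, 9.72 and 17.9 CPM in Sham, highest of the regions in replicates 4 and 5.

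*Erbb3* was called in 5 regions, higher in raphe, LS (lateral septum) and BNST and lower in CMA and InsularC. In raphe and LS 33.6% and 19.4% of transcripts were called, and 38.4% differed between raphe and InsularC. Raphe exceeded the mean of the others by 1.24 ± 0.30 on the log2 scale (SE, edgeR adjusted p = 9.22e-04). InsularC, at 0.489, 1.80, 1.41 and 3.23 CPM, was last in the order, and each of its libraries lay below the raphe library of the same number. The difference between raphe and InsularC was 2.50 ± 0.50 (SE, edgeR adjusted p = 3.37e-05). Of the 5 calls in Sham, 4 were also made in FT with the same sign. For *Fzd6* this held for 8 of 13, for *Notch2* for 1 of 4 and for *Bmpr1a* for 0 of 4. No share over all transcripts is given beside these counts, so whether they are ordinary cannot be told.

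**Figure D4:**
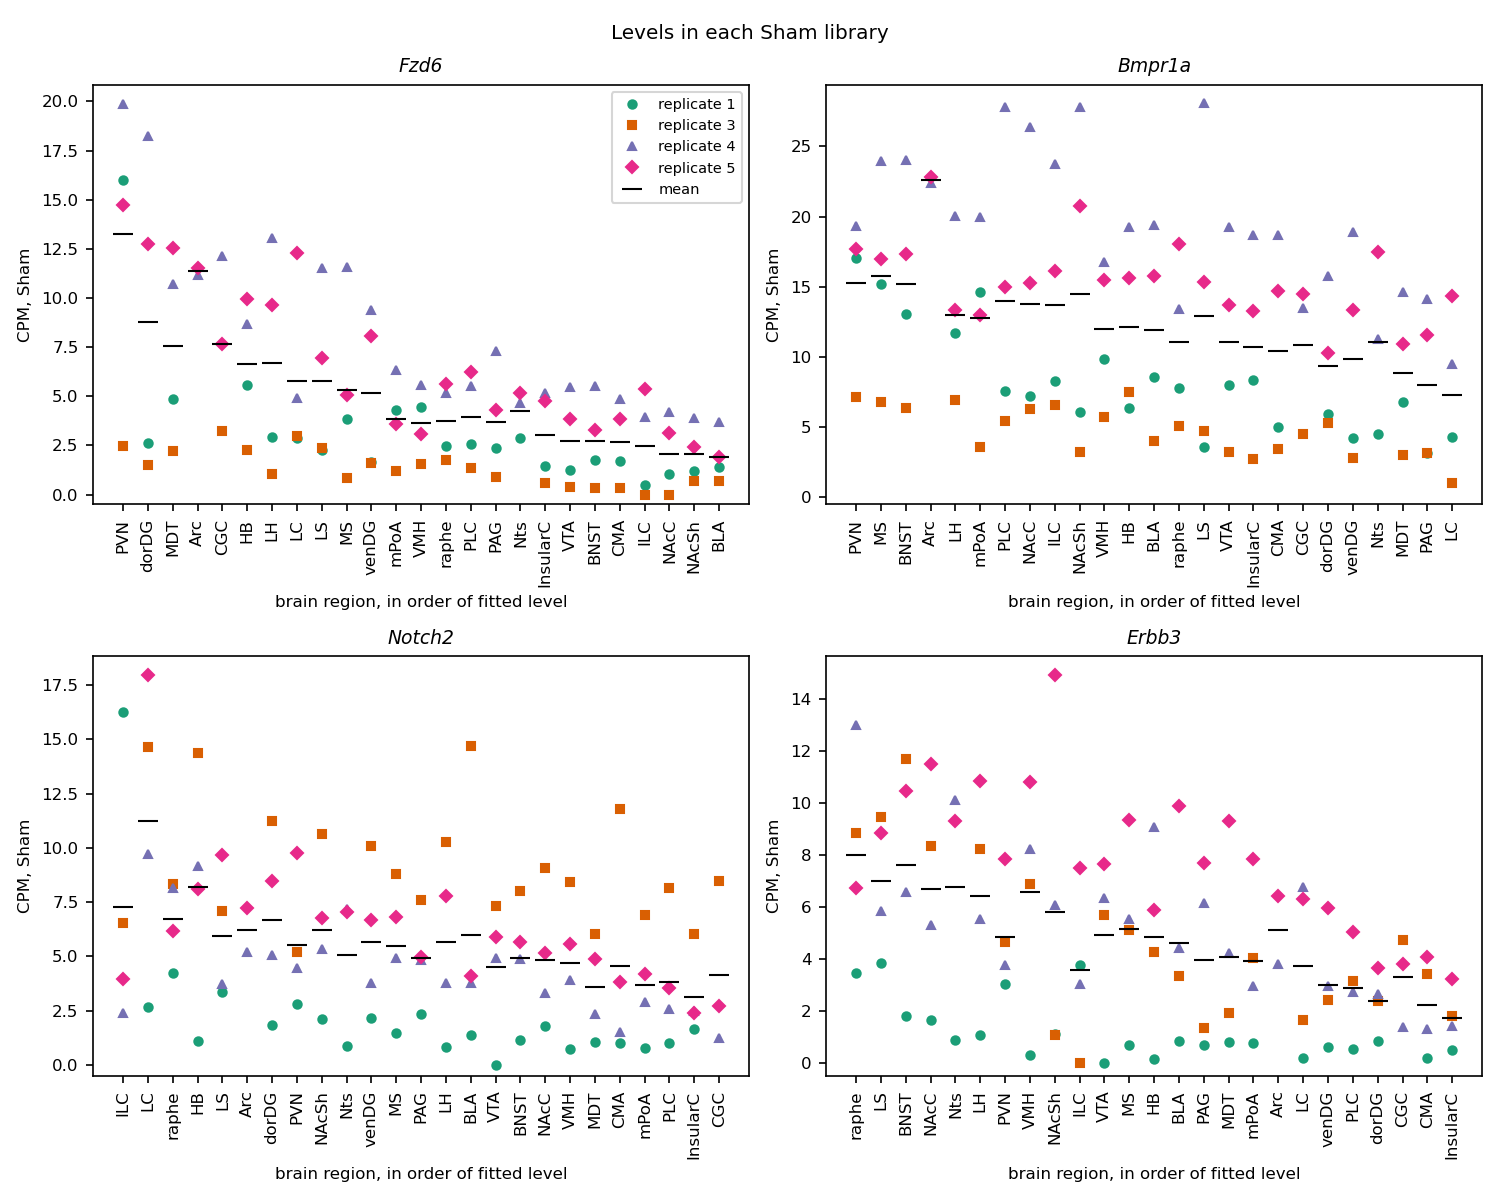
Level in CPM (y axis) of each Sham library, with regions (x axis) in the order of their fitted level for each transcript, a colour and symbol per replicate number and a black dash for the mean. *Fzd6* runs from a mean of 13.3 CPM in PVN to 1.90 CPM in BLA, and the symbols of replicate 3 lie low for *Fzd6* and *Bmpr1a* and high for *Notch2*.

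The replicate numbers also set apart the levels themselves. In Sham, the median *Bmpr1a* level over regions was 7.56, 4.73, 19.3 and 15.3 CPM in replicates 1, 3, 4 and 5. That of *Notch2* was 1.47, 8.43, 3.93 and 5.87 CPM, and that of *Erbb3* 0.807, 4.05, 5.30 and 7.68 CPM. In FT, *Fzd6* had medians of 1.99 and 0.844 CPM in replicates 1 and 3 and of 25.7 and 21.5 CPM in replicates 4 and 5. *Fzd6* was therefore far higher in both FT groups of replicates 4 and 5 than in those of replicates 1 and 3, whereas its Sham medians (2.45, 1.19, 5.56 and 5.34 CPM) lay closer together.

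As a description, the 1844 other named transcripts were ranked by Pearson's r with each receptor over the 25 Sham region means of log2 CPM. Region means draw on the same replicate numbers, so the 25 points are not independent, and r was also taken over the FT means. Closest to *Erbb3* were *Chn2* (r = 0.79 in Sham and 0.74 in FT), *Slc25a13* (0.76 and 0.86), *Opalin* (0.76 and 0.88), *Pls1* (0.74 and 0.63) and *Zfp664* (0.74 and 0.53). *Opalin* encodes a membrane protein of oligodendrocytes, and over the same means *Erbb3* had r = 0.71 in Sham and 0.80 in FT with the summed level of 10 oligodendrocyte markers, of which *Opalin* is 1. The other 3 receptors lay between -0.03 and 0.18 with that sum in Sham. In FT they had r = -0.09 (*Fzd6*), 0.49 (*Bmpr1a*) and 0.21 (*Notch2*).

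Closest to *Fzd6* were *Prtg* (r = 0.71 in Sham and 0.66 in FT), *Eps8l2* (0.69 and 0.60), *Dennd4c* (0.69 and 0.48), *Cdc14b* (0.67 and 0.53) and *Ahsa2* (0.66 and 0.74). For *Notch2* they were *Soga1* (0.70 and 0.58), *Baz2a* (0.67 and 0.52), *Erlin2* (0.60 and 0.54), *Zfp414* (0.59 and 0.40) and *Zhx2* (0.59 and 0.69). The likeness of *Bmpr1a* was the least stable between groups, with *Nit2* (0.75 and 0.59), *Klhl24* (0.74 and 0.01), *Ddx17* (0.72 and 0.34), *Mat2a* (0.71 and 0.35) and *Tmcc1* (0.71 and 0.03). Among the receptors themselves, *Bmpr1a* and *Erbb3* had the highest r (0.48 in Sham and 0.55 in FT).

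Other genes of the 4 pathways were taken from fixed lists, of which a part had an identifier on the study's list, so that they too were chosen by the study on these samples. In all, 1.93% of combinations of a transcript and a region were called in either direction, and 6.35% of those of named transcripts. Of 13 Wnt genes, 9 were called in at least 1 region, with 11 combinations higher and 13 lower of 311 tested (7.72%) and a median log2FC of 0.01. *Daam2*, a formin of the polarity branch, was called lower in 4 regions (median log2FC -0.69) and so was *Ccnd1*, the cyclin D1 gene and a known Wnt target (-0.44), whereas *Nlk*, a kinase that acts on Tcf factors, was called higher in 4 (0.69).

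Of 6 BMP genes, 4 were called, with 7 combinations higher and 4 lower of 136 (8.09%) and a median log2FC of 0.25. *Tob1*, which encodes an inhibitor of Smad signalling, was called higher in 4 regions (median log2FC 0.91), as was *Id2*, a target of the pathway, in 2 (0.29), and *Hipk2*, a kinase gene, was called lower in 4 (-0.38). Of 10 Notch genes, 9 were called, with 10 combinations higher and 7 lower of 250 (6.8%) and a median of 0.25. *Jag1*, a Notch ligand, was called higher in 4 regions (0.96) with a positive log2FC in 25 of 25, *Heyl*, a target, higher in 2 (0.75), and *Mib1*, a ubiquitin ligase that activates ligands, lower in 3 (-0.60).

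Of 10 ErbB genes, 8 were called, with 5 combinations higher and 10 lower of 250 (6%) and a median of -0.19. *Eif4ebp2*, a repressor of translation that mTOR acts on, was called lower in 3 regions (median log2FC -0.72), as were *Nras*, a small GTPase, in 3 (-0.65) and *Stat5b*, a transcription factor, in 2 (-0.68). No list moved one way. Calls of these named genes lay in mPoA, raphe, Arc and Nts, which hold 1428, 828, 3551 and 511 of the 6453 calls over all transcripts and regions, so that these regions are not particular to the pathway genes or the receptors. The calls in Nts share its shallow Sham library.

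**Figure D5:**
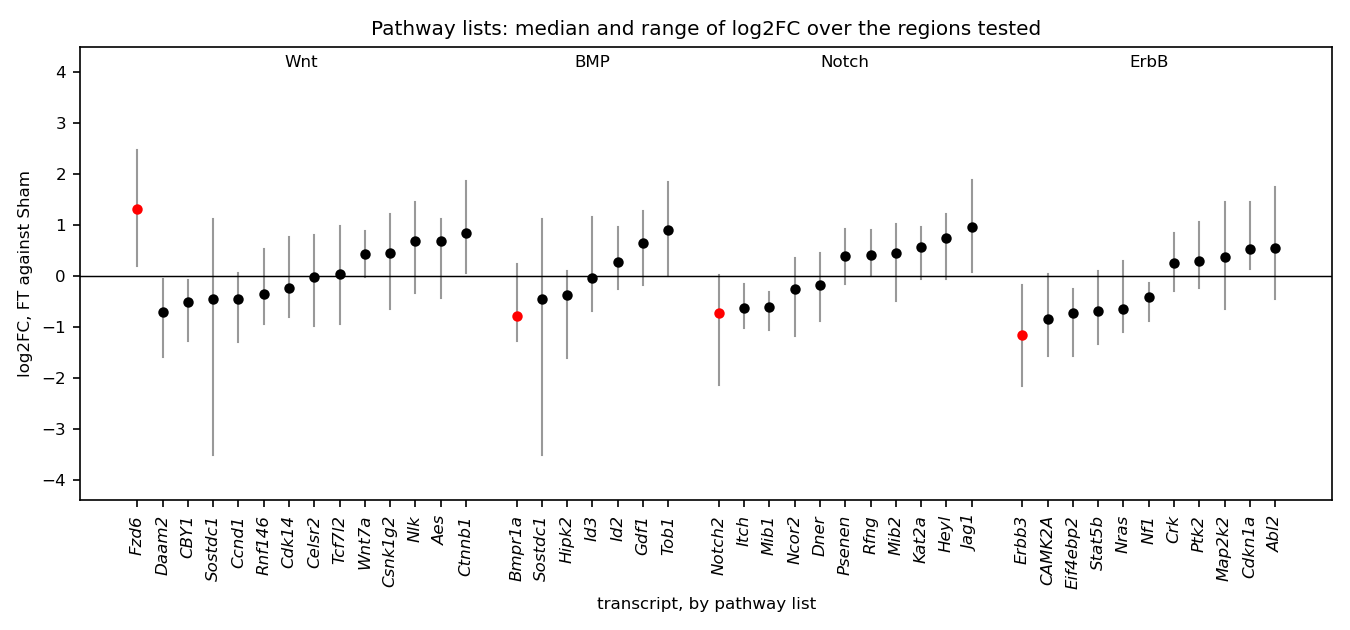
Log2FC of FT against Sham (y axis) for each transcript of the 4 pathway lists (x axis), with a dot for the median over the regions tested and a line from the lowest to the highest region. The receptors are in red, and among the list genes medians run on both sides of 0, from *CAMK2A* at -0.83, named as the lowest after the values were seen, to *Jag1* at 0.96.

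Cell type markers were set beside the receptors, pair by pair in the 21 regions. The summed level of 10 oligodendrocyte markers had a median log2 FT to Sham ratio of -0.02, 0.01 and -0.31 in replicates 1, 3 and 4, and FT was higher in 10, 11, 2 and 10 of 21 regions in replicates 1, 3, 4 and 5. Sums of 4 microglial markers had medians of 0.31, 0.32, -0.14 and -0.27 in replicates 1, 3, 4 and 5, and sums of 7 vascular markers -0.05, 0.04, 0.11 and 0.31. For 6 astrocyte markers the medians were 0.15, 0.03, -0.31 and 0.07 in replicates 1, 3, 4 and 5, for 5 neuronal markers 0.56, 0.38, 0.15 and -0.03, and for 4 meningeal and fibroblast markers -0.31, -0.14, -0.02 and 0.21. The sum of 5 choroid plexus markers varied most, with medians of -1.24 and -1.44 in replicates 4 and 5 and a range of 4.97 to 69760 CPM over Sham libraries and 3.02 to 99036 CPM over FT libraries. No marker of any list was at 0 in every library of a group, and the part of these shifts in the receptor differences was not tested.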

How the data were processed

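The authors deposited raw read counts per transcript, made with STAR and HTSeq on the genome build rn5 per the labels, with no normalization. Rows that name no transcript were left out. They held a median of 40.3% (no feature) and 5.52% (ambiguous) of reads. The members and gene lists were chosen with earlier results of these data known. Names came from the study's list alone, and dorCA1 and venCA1 were not analysed here.

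Counts were filtered with filterByExpr (minimum count 10, minimum total 15), scaled with TMM and tested in edgeR 4.0.16 (R 4.3.3) per region, with the replicate number as a block as in the study's methods. Deviations from group means correlated in the same-numbered FT and Sham samples (median r = 0.588, over 0.1 in 92 of 94 pairs). SE was derived from log2FC and F. In the joint fit the dispersion trend came from every 8th transcript. Samples are pools. With the block, p-values measure the spread between pools that is left after differences between replicate numbers are taken out. Scripts were tested on simulated data. Named genes were the receptors, the 5 transcripts most like each and, of each pathway list, the 3 called in the most regions. Alternatives were DESeq2 1.42.0, no block, RLE factors, no filter, an adjusted p of 0.05, prior count 0.5, FT libraries, all CGC samples, Spearman's rho, and each replicate or doubtful library left out. Leaving out the ILC and VTA libraries and adjusting region means for replicate number were chosen after seeing the data. Counts of reads limit the precision for receptors with few reads.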

Additional observations from a re-analysis of the deposited data

Results flagged for a closer look

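In groups of 4 libraries, 15 of 184 groups held a library whose log2 CPM stood far from the other 3, by Dixon's test at the 95% level, where chance gives about 1 in 20. *Fzd6* lay low in Sham PVN replicate 3 (1.38, on 9 reads). *Bmpr1a* lay low in replicate 3 of Sham PVN (2.86), FT PLC (1.64), FT ILC (0.85, on 4 reads), FT BNST (1.60) and FT HB (1.65). *Notch2* lay high in replicate 3 of FT ILC (2.93), FT BNST (2.81), FT VMH (2.87) and FT BLA (3.30). *Notch2* and *Erbb3* each had 0 reads in the shallow Sham VTA library of replicate 1 (-2.85 at the prior count used). *Erbb3* lay low in replicate 1 of Sham VMH (-1.15, on 5 reads), FT MDT (0.13) and FT Arc (-0.42, on 7 reads).

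Of the 15, 10 were libraries of replicate 3, in which the 50 most abundant transcripts took the largest share of reads. The part of that share in these values was not tested.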

How the results depend on the processing

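The number of calls changed with the replicate left out, for the receptors as over all transcripts. Leaving out each replicate in turn gave 0 to 5 regions called for *Fzd6* (3 with all replicates), 0 to 2 for *Bmpr1a* (1), 0 to 2 for *Notch2* (2) and 0 to 3 for *Erbb3* (3), with 0 for all of them without replicate 4 or 5. There 23 regions were fitted, since mPoA and Arc then kept 1 pair, so the loss of their calls was fixed in advance. Over all transcripts, edgeR called 6453 combinations in full, 10540, 7480, 214 and 423 without replicate 1, 3, 4 and 5, 11120 with DESeq2, 18320 without the low-count filter, 3092 at an adjusted p of 0.05 and 1 with no replicate block. With no replicate block 0 regions were called for any receptor, the F-test of levels gave an adjusted p of 0.102 for *Fzd6* and 1 for the others, and 1 region differed from the others in level for *Fzd6* and 0 for the others. DESeq2 called *Fzd6* in 6 regions and *Bmpr1a* in 7. Without the filter 13, 8, 6 and 8 regions were called for *Fzd6*, *Bmpr1a*, *Notch2* and *Erbb3*. At an adjusted p of 0.05 *Notch2* and *Erbb3* kept 1 region each. Without the Nts pair of replicate 3 *Notch2* had 1, and without the ILC and VTA libraries, an alternative chosen after seeing the data, *Bmpr1a* had 2.

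Leaving out each replicate gave 7 to 13 regions differing in level for *Fzd6* (13 with all replicates), 1 to 4 for *Bmpr1a* (4), 2 to 4 for *Notch2* (4) and 3 to 7 for *Erbb3* (5). In FT libraries the number was 0 for *Bmpr1a*, 9 for *Notch2* and 12 for *Erbb3*, and for *Notch2* it was 2 with RLE factors and 2 without the filter. The mean difference over regions ran from 0.31 to 1.13 for *Fzd6*, -0.81 to -0.57 for *Bmpr1a*, -0.83 to -0.34 for *Notch2* and -1.08 to -0.41 for *Erbb3*, and 3 replicates cannot give an exact p below 0.25. The joint fit called 766 transcripts, 1 with no replicate-specific treatment effect, 1207 without the ILC and VTA libraries, 431 without the filter, and 131, 1, 1550 and 1975 without replicate 1, 3, 4 and 5, and the 4 receptors in none of these. DESeq2 called 54, 23, 32 and 27 combinations of the Wnt, BMP, Notch and ErbB lists, against 24, 11, 17 and 15. The counts aside, the mean differences over regions kept their sign under these alternatives. Without the ILC and VTA libraries the level of *Notch2* in ILC turned from 1.35 above the other regions to -0.70 on the log2 scale, and that of *Erbb3*, called in neither fit, from 0.31 to -0.28. The causes were not tested. Few reads limit *Fzd6*, *Notch2* and *Erbb3* in replicate 3.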
